A study of Mus musculus with 4 samples.

Results

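The 10 regulators of the hepatic circadian clock were followed in mouse liver 48 h after partial hepatectomy, in which liver lobes are cut out and the rest regrows, and 48 h after a sham operation. The genes were the activators Arntl (also called Bmal1) and Npas2, the repressors Nr1d1, Per1, Per2, Per3 and Ciart, and the output transcription factors Dbp, Tef and Nfil3. They were found on the Affymetrix array through every probe set, a group of short probes for 1 transcript, whose annotation named 1 of these symbols and no other. This gave 22 probe sets for the 10 genes, of 45037 probe sets that were not controls and 18193 genes with such a probe set, and 18 of them, at least 1 for each gene, were bright enough over the 4 arrays to be tested. The study held 2 arrays of sham-operated liver and 2 of liver after hepatectomy, all from C57BL/6J mice and described as biological duplicates of mature liver. The labels name no gene change and no drug. The sources used here do not give the age of the mice, the hour of sampling or the number of animals behind an array. Each p-value therefore sets a difference against the spread between these arrays only, which was taken in part from other probe sets.

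The liver clock is a loop of transcription. BMAL1, the product of Arntl, pairs with CLOCK or with its relative NPAS2 and activates genes through the E-box, a short DNA element. Among these genes are the Per genes and Ciart, whose proteins repress the activators, and Nr1d1, which encodes the nuclear receptor REV-ERB alpha. REV-ERB alpha in turn represses Arntl, Npas2 and Nfil3 through the ROR element. In the undisturbed mouse liver Nr1d1, Ciart, Dbp, Per3 and Tef peak in the later part of the light phase, followed by Per1 and Per2, while Arntl, Npas2 and Nfil3 peak on the opposite side of the day. Dbp and Tef are activators of the PAR bZIP family that bind the D-box, and Nfil3 encodes a repressor of the same element. The 7 genes in phase with Dbp and the 3 opposite to it are therefore described as separate sets.

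The letters of the elements of that loop can be read in the DNA in front of most of these genes, and the stretches that hold a match are shown so that the genes can be compared by element. The sequences are from RefSeq (GRCm38.p6) and run 5′ to 3′ on the strand of the gene. Each is the 250 bases before an annotated start, except for Arntl, where it is a site of 30 bases after the second annotated start. Capitals mark a match to a searched motif on either strand.
Ciart, chr3:95882229-95882478, minus strand: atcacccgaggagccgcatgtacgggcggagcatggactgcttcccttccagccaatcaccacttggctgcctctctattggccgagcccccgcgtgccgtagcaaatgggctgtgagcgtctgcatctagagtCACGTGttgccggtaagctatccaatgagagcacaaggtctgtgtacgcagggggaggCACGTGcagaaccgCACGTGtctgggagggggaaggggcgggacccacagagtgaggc
Per1, chr11:69098699-69098948, plus strand: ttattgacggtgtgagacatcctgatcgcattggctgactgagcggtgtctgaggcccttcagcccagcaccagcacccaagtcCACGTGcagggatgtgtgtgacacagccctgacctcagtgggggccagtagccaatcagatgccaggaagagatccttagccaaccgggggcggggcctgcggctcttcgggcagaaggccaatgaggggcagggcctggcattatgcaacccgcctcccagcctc
Tef, chr15:81802423-81802672, plus strand: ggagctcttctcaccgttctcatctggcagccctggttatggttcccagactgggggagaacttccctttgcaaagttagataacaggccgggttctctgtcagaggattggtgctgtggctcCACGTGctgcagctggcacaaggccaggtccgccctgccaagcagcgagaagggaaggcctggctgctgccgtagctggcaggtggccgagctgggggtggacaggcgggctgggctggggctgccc
Tef, chr15:81811164-81811413, plus strand: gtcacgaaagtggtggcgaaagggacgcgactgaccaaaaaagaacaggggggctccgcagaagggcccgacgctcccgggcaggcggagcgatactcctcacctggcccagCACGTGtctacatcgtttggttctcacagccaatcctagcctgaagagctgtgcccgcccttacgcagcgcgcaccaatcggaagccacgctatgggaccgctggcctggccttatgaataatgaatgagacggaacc
Nr1d1, chr11:98775378-98775627, minus strand: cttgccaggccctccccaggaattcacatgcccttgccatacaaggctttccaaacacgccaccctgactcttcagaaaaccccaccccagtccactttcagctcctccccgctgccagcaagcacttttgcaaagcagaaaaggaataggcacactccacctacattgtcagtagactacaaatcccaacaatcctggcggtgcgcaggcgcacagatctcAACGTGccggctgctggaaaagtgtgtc
Per3, chr4:151044666-151044915, minus strand: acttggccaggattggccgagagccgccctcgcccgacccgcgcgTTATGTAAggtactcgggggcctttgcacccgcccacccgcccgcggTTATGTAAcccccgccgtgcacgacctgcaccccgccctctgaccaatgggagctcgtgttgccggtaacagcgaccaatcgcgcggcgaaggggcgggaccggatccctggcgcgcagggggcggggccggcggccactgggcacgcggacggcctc
Nfil3, chr13:52981040-52981289, minus strand: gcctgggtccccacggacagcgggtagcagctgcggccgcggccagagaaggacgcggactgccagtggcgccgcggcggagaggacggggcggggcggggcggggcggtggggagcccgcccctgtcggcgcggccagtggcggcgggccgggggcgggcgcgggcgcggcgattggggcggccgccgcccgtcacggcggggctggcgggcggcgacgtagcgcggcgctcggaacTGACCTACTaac
Arntl, chr7:113207529-113207558, plus strand: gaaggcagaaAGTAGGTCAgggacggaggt

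RefSeq windows were at hand for 9 of the 10 genes, all but Per2, in 12 windows, since Arntl, Per1 and Tef each had windows at a pair of starts. Ciart held the E-box CACGTG at 3 places, beginning 116, 58 and 44 bases before its start. Per1 held it once, 166 bases before its first start, and Tef once at each of its starts, 127 and 138 bases before them. In all, 4 of the 12 windows held the E-box, against 6.02% of 32851 mouse windows of the same 250 bases. The related letters CACGTT were found in the window of Nr1d1, on the other strand, and in 3.85% of all windows. Per3 held the D-box letters TTANGTAA, 205 and 158 bases before its start; 2.06% of all windows held them. The core of the ROR element, NNTAGGTCA, was found in Nfil3, 12 bases before the start on the other strand. With the 50 bases after the start, which were added after the data were seen, it was also found in Arntl, 29 bases after its second start. No window of the in-phase genes held it, but Per2 had no window. Of all windows, 2.21% held these letters in the 250 bases, and 2.58% when the 50 bases after the start were counted. The windows of Dbp and Npas2 held none of these letters, nor any with TGGGTCA (3.24% of all windows) or the cAMP element TGACGTCA (1.55%), and no match says only that these letters are not in this window. The motifs do not overlap one another in the stretches shown, and a match is a description of the letters, not of a bound site.

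Both groups had the transcripts of liver. All 8 hepatocyte markers, among them Alb and Ttr, lay on every array above 20.4, the highest signal of 27 bacterial control probe sets, and none was called different. One array stood apart. Of 7 measured markers of the adrenal cortex, 6 were above the control level in hepatectomy replicate 1, against 3, 3 and 4 on the others, with a summed signal of 19589, against 244 and 207 on the sham arrays and 224 in hepatectomy replicate 2. The summed signal of 6 measured fat cell markers was 1281 and 1362 on the sham arrays, 6826 in hepatectomy replicate 1 and 2890 in replicate 2. Most of each sum was Fabp4, the 1 gene of this list that was called, at 1072 and 1264 against 4391 and 2592. Of 8 leukocyte markers 2 were called higher, the neutrophil genes S100a8 and S100a9, and the sums were 9601 and 9935 against 17858 and 11162. Without this pair the sums were 9171 and 9589 against 8036 and 7641. Of the other 6, 5 had negative fold changes, and none of the 6 was called. Clec4f (-0.58), Adgre1 (-0.40) and Cd3e (-1.32) were lower without overlap, while Cd68 (0.33) was higher without overlap. Over all genes 23.2% were lower and 28.1% higher without overlap. The median of the 8 was -0.20. The 4 markers of dividing cells were all called higher, with sums of 402 and 524 against 4743 and 4008. Of 4 bile duct cell markers none was called, with sums of 457 and 526 against 1249 and 737. Of these, 3 (Krt19, Krt7 and Sox9) were higher without overlap, and the median of the 4 was 0.84. Since the adrenal sum of hepatectomy replicate 2 lay between those of the sham arrays, the value of each clock gene is given also without replicate 1. The fat cell sum of replicate 2, 2890, was still above those of both sham arrays, so this step does not remove that difference. A fit with 1 array left in a group takes a gene's own spread from the other group alone. Its p-value therefore leaves out the gap between the duplicates of the first group, and a smaller one is no added support. The part of the other cell types in the differences below was not tested. In whole liver, fewer cells of a type and less RNA per cell cannot be told apart.

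The comparison asked which transcripts differ between regenerating and sham-operated liver. After hepatectomy 3 of the 7 genes in phase with Dbp were lower, namely Dbp, Per3 and Ciart, and 1 of the 3 opposite genes, Nfil3, was higher. These 4 genes were called by limma at a Benjamini-Hochberg adjusted p of 0.05 over all 27022 probe sets tested, each gene being read from its tested probe set with the highest mean. Among all 12560 genes, 4.67% were called, 1.09% as lower and 3.57% as higher. The signals of the groups did not overlap for 8 of the 10 genes, 6 lower and 2 higher after hepatectomy, where over all genes the shares were 51.3%, 23.2% and 28.1%. The 7 in-phase genes lay below their sham mean on both hepatectomy arrays, and the 3 opposite genes lay above it on both. Any gene whose groups do not overlap lies on one side in this way, so at least 51.3% of all genes do. The share itself was not counted. Npas2 was only 0.06 above its sham mean in hepatectomy replicate 1, on the log2 scale. Over the 10 genes the median log2 fold change was -0.77, with -0.83 over the in-phase genes and 1.06 over the opposite ones, while the median over all genes was 0.02. None of these calls held in every fit with 1 array left out. The number called over all probe sets moved with the array left out as well, so these fits are not read as counts of members.

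**Figure D1:**
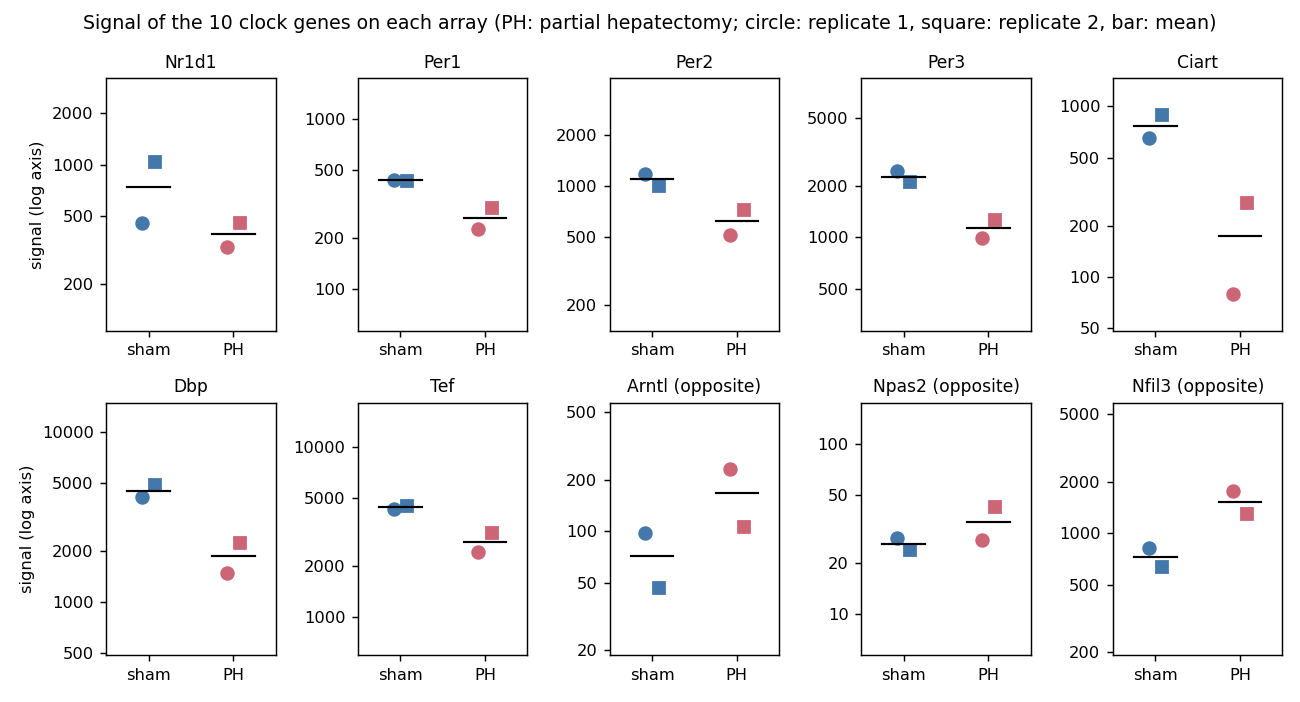
Signal of the 10 clock genes, each read from its probe set with the highest mean, on the 2 sham and the 2 partial hepatectomy (PH) arrays; vertical axes are logarithmic and span the same ratio in every panel, and the black bar is the mean of the pair. Dbp, for example, was at 4145 and 4848 in sham liver and at 1487 and 2218 after hepatectomy, whereas Nfil3 went from 822 and 635 to 1776 and 1293.

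Among the output factors, Dbp, which drives rhythmic genes of liver metabolism, fell in both of its probe sets. In the brighter one the signal of the sham arrays, 4145 and 4848, compared with 1487 and 2218 after hepatectomy. The groups were clearly apart, and each hepatectomy array lay well under the lower sham array. The log2 fold change, hepatectomy minus sham, was -1.30 ± 0.20 (SE, n = 2 arrays per group; limma adjusted p = 0.0143), a fold of 2.46 lower. The other probe set of Dbp read 2237 and 3056 against 559 and 962, a log2 fold change of -1.82 ± 0.27 (limma adjusted p = 0.0117). Without hepatectomy replicate 1 the brighter probe set still gave -1.01 (limma adjusted p = 0.00674; from 4.9e-05 to 0.144 over 13 alternatives). The call was lost without sham replicate 1 (-1.41, limma adjusted p = 0.0582) and without sham replicate 2 (-1.19, limma adjusted p = 0.0899).

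Tef, a relative of Dbp, was read by 3 tested probe sets that did not give the same size of change. The one with the highest mean had signals of 4297 and 4495 against 2402 and 3096. Those groups did not overlap, but the log2 fold change of -0.69 ± 0.16 missed the threshold (limma adjusted p = 0.0599, 95% interval from -1.05 to -0.32). It was -0.50 without hepatectomy replicate 1 and -0.87, with a call, without replicate 2 (limma adjusted p = 0.155 and 0.00929, in a range from 0.00929 to 0.258 over 13 alternatives). A second, dimmer probe set was called lower, with 326 and 512 against 140 and 153 (-1.43 ± 0.28, limma adjusted p = 0.036). The third read 80.7 and 52.4 against 60.2 and 69.8, and its groups overlapped (-0.01 ± 0.35). Which transcripts of Tef each probe set detects was not analysed here.

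Nfil3, the repressor that competes with Dbp and Tef for the D-box, moved the other way. It read 822 and 635 in sham liver, then 1776 and 1293 after hepatectomy. Both hepatectomy arrays stood above both sham arrays. It rose by 1.06 ± 0.22 on the log2 scale, a fold of 2.09 (limma adjusted p = 0.0437). Without hepatectomy replicate 1 the value was 0.83 and the call was lost (limma adjusted p = 0.0727; from 0.00213 to 0.232 over 13 alternatives). It was lost too without sham replicate 1 (1.24, limma adjusted p = 0.12) and without sham replicate 2 (0.88, limma adjusted p = 0.232).

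Of the repressors, Ciart, whose product CHRONO binds BMAL1, had the largest fall among the 10 genes. It read 649 and 892 in sham liver, 79.1 in hepatectomy replicate 1 and 270 in replicate 2. The hepatectomy arrays were both low but differed from each other by 1.67 on the log2 scale, the widest gap between duplicates of any of the 10 genes. The log2 fold change was -2.30 ± 0.48, or 4.92-fold lower (limma adjusted p = 0.0444). Without hepatectomy replicate 1 it was -1.46 (limma adjusted p = 0.00659), without hepatectomy replicate 2 it was -3.13, and over 13 alternatives the adjusted p ran from 4.5e-05 to 0.202. The call was lost without sham replicate 1 (-2.53, limma adjusted p = 0.147) and without sham replicate 2 (-2.07, limma adjusted p = 0.202).

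Per3, a period gene, was read by 6 probe sets, of which 4 were tested. The brightest had signals of 2444 and 2104 against 997 and 1262. These groups lay far apart relative to the gap within each pair. Per3 fell by 1.01 ± 0.18 on the log2 scale, or 2.01-fold (limma adjusted p = 0.0248). This limma adjusted p ran from 0.00255 to 0.156 over the alternatives with all 4 arrays. Per3 was at -0.84 without hepatectomy replicate 1. Without sham replicate 1 (-0.90, limma adjusted p = 0.225) or sham replicate 2 (-1.12, limma adjusted p = 0.0915) it was not called. Its next probe sets, at 222 and 222 against 144 and 172 and at 83.4 and 106 against 58.7 and 73.4, were lower without overlap but missed the threshold (-0.48 ± 0.26 and -0.47 ± 0.33). A dim one, between 23.0 and 30.3 on all arrays, showed 0.05 ± 0.41.

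Per1 and Per2 encode the period proteins that act with the cryptochromes to shut off BMAL1. Per1 had signals of 439 and 429 against 224 and 300. The sham arrays were nearly alike and both hepatectomy arrays were lower, yet the log2 fold change of -0.73 ± 0.24 was not called (limma adjusted p = 0.173, 95% interval from -1.28 to -0.17), and was -0.52 without hepatectomy replicate 1. Per2 read 1178 and 1005 against 513 and 723 in its brightest probe set. Again the groups did not overlap and the change of -0.83 ± 0.22 was not called (limma adjusted p = 0.0988, 95% interval from -1.34 to -0.32). It was -0.58 without hepatectomy replicate 1 and -1.07, with a call, without replicate 2 (limma adjusted p = 0.194 and 0.0113, in a range from 0.0113 to 0.525 over 13 alternatives). Of its dimmer probe sets, one read 64.4 and 85.0 against 26.1 and 60.7 (-0.75 ± 0.43) and the other stayed between 24.97 and 35.01 (-0.18 ± 0.39).

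Nr1d1, whose product represses Arntl, was the in-phase gene with the widest gap between the sham arrays. Its signal was 454 in sham replicate 1 and 1032 in sham replicate 2, against 330 and 456 after hepatectomy. Sham replicate 1 and hepatectomy replicate 2 thus stood at nearly the same level, and the groups overlapped. The log2 fold change was -0.81 ± 0.37 (limma adjusted p = 0.327, 95% interval from -1.66 to 0.04). Leaving out hepatectomy replicate 1 gave -0.58, leaving out sham replicate 1 gave -1.39 and leaving out sham replicate 2 gave -0.22 (limma adjusted p = 0.494, 0.129 and 0.874, in a range from 0.0607 to 0.874 over 13 alternatives), so its size rested on which sham array was used.

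The activator Arntl showed the mirror image of Nr1d1 in the sham arrays. It read 97.6 in sham replicate 1 and 46.3 in sham replicate 2, then 231 in hepatectomy replicate 1 and 107 in replicate 2. The lower hepatectomy array was just above the higher sham array. The log2 fold change of 1.12 ± 0.46 was not called (limma adjusted p = 0.271, 95% interval from 0.07 to 2.17), and was 0.59 without hepatectomy replicate 1, 0.64 without sham replicate 2, 1.60 without sham replicate 1 and 1.65, with a call, without hepatectomy replicate 2 (limma adjusted p from 0.0451 to 0.707 over 12 alternatives). Npas2, the partner that can replace CLOCK, was dim, at 28.0 and 23.8 against 27.4 and 42.5, only slightly above the control level of 20.4. Its groups overlapped and the difference was 0.32 ± 0.41 (limma adjusted p = 0.77), or 0.57 without hepatectomy replicate 1. Without replicate 2 it was too dim to be tested.

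Counted over all 18 tested probe sets, 5 were called lower and 1 higher, where 0.877% and 2.51% of all tested probe sets were, 3.39% in all. Of the 15 in-phase probe sets, 11 were lower without overlap between the groups, and over all tested probe sets that share was 23.3%. Of the 3 opposite probe sets, 2 were higher without overlap, against 24.4% of all. The 4 probe sets left untested, of Arntl, Npas2 and Per3 (a pair), had signals from 3.63 to 30.3, and their groups overlapped.

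**Figure D2:**
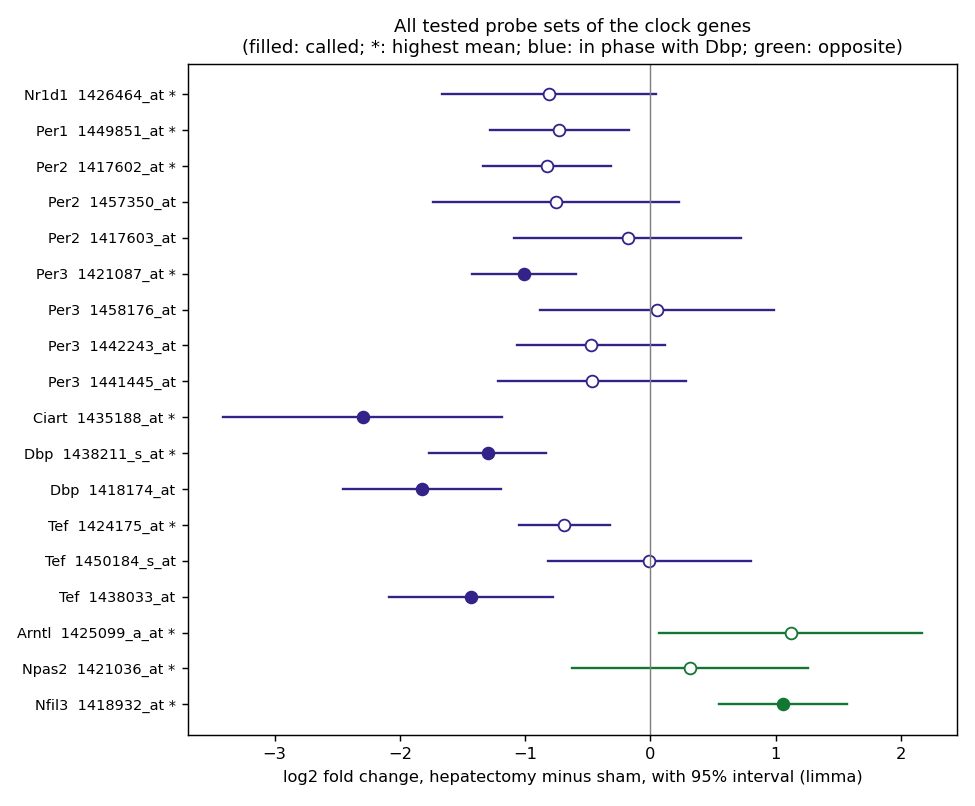
Log2 fold change, hepatectomy minus sham, of each tested probe set of the clock genes with its 95% interval from limma; filled points were called, the star marks the probe set with the highest mean of a gene, blue stands for genes in phase with Dbp and green for the opposite ones. The 5 called decreases, from -2.30 for Ciart to -1.01 for Per3, include both probe sets of Dbp, and the 3 green points lie to the right of 0.

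To relate the 2 sets on each array, every gene was set to its deviation from its own sham mean on the log2 scale, so that no gene's level was compared with another's. The 7 in-phase genes averaged -1.40 in hepatectomy replicate 1 and -0.79 in replicate 2. The 3 opposite genes averaged 1.0 and 0.66 on the same arrays. In-phase minus opposite came to -2.40 and -1.45, against -0.35 in sham replicate 1 and 0.35 in sham replicate 2, where the pair of sham values mirror each other by construction. The mean difference between hepatectomy and sham was -1.93, with a pooled SD between duplicates of 0.59. No test is given for this value, since the genes were chosen with results in view. Dbp minus Arntl alone gave -0.59 and 0.59 in sham liver, then -3.24 and -1.61.

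**Figure D3:**
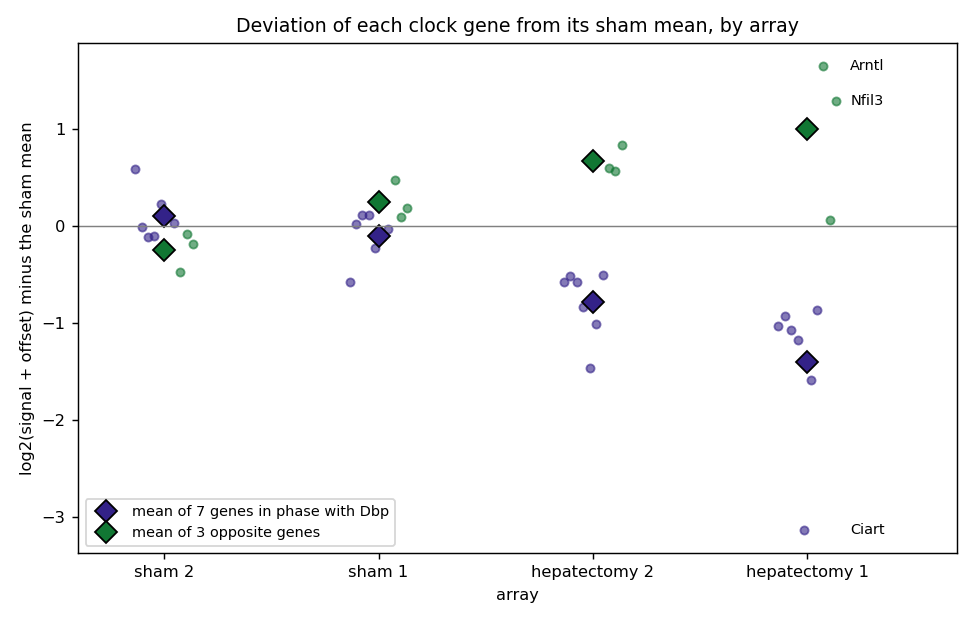
Deviation of each of the 10 clock genes from its own sham mean, in log2(signal + offset), on each array; small points are genes, diamonds the mean of the 7 genes in phase with Dbp (blue) and of the 3 opposite genes (green). The sets lie close together on the sham arrays and part to -0.79 and 0.66 in hepatectomy replicate 2 and to -1.40 and 1.0 in replicate 1, where Ciart reached -3.13 and Arntl 1.65.

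The duplicates of a group differed as well. From sham replicate 1 to sham replicate 2 the opposite genes were lower in 3 of 3 cases, by 0.50 on average, and the in-phase genes were higher in 4 of 7, a share near the 54.1% of all genes that were higher in sham replicate 2. The 4 were Nr1d1, Ciart, Dbp and Tef, while Per1, Per2 and Per3 differed by -0.03, -0.23 and -0.22, on the side of the opposite genes. From hepatectomy replicate 1 to replicate 2 all 7 in-phase genes were higher, by 0.61 on average, and 2 of the 3 opposite genes, Arntl and Nfil3, were lower, while Npas2 was higher by 0.50. Over all genes 46.6% were higher in hepatectomy replicate 2. No test of these counts is given. Of the 10 genes, 9 lay farther from the sham mean in hepatectomy replicate 1, the array with the high adrenal sum, than in replicate 2. The same share over all genes was not counted, and the part of adrenal or fat transcripts in it was not tested. The median gap between the hepatectomy arrays was 0.47 over the 10 genes and 0.27 over all tested probe sets, and between the sham arrays it was 0.23 over both. The part of the sampling hour in these differences was not tested.

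Of 17 other genes of the core clock, 14 were tested and 1 was called, where 4.67% of all genes were. That gene was Timeless, which in mammals also serves the replication fork, with signals of 92.8 and 119 against 403 and 681 (2.23 ± 0.31, limma adjusted p = 0.0087). Hlf, the third PAR bZIP factor, read 1237 and 1224 against 586 and 845, without overlap and without a call (-0.80 ± 0.22, limma adjusted p = 0.1). Nr1d2, the gene of REV-ERB beta, read 4843 and 5147 against 4071 and 3965 (-0.31 ± 0.12, limma adjusted p = 0.251). Clock, the usual partner of BMAL1, read 860 and 840 against 1310 and 1236 (0.58 ± 0.17, limma adjusted p = 0.126). Cry1, a cryptochrome repressor that peaks nearer to Arntl than to Dbp, read 1605 and 1207 against 1012 and 1126 (-0.38 ± 0.19, limma adjusted p = 0.387), which is on the side of the in-phase genes. Bhlhe41 was too dim to test, between 3.96 and 19.8. The median over the 14 genes was -0.07. Timeless was at 2.06 without sham replicate 1, where its call was lost.

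Among 22 tested genes known as outputs of the liver clock, 6 were called lower and none higher in the probe set with the highest mean. Over all genes 1.09% were called lower and 3.57% higher. Without overlap 13 of the 22 were lower and 6 higher, against 23.2% and 28.1% of all genes. Insig2 (0.93) and Upp2 (-2.43) were not called there, but 1 and 2 of their 3 tested probe sets were. This list held genes already known from earlier results of these arrays to have fallen, so its count is no independent evidence of a direction. Usp2 and Noct are close to the loop itself. Usp2, a deubiquitinase gene that peaks near Dbp, read 5078 and 4645 against 1731 and 2977 (-1.09 ± 0.24, limma adjusted p = 0.0488), with 1 of its probe sets called and 1 not. Noct, the gene of nocturnin, read 2769 and 3476 against 1718 and 1770 (-0.83 ± 0.16, limma adjusted p = 0.0338). The others were Cyp7a1, which opens the path from cholesterol to bile acids (-4.01), Rgs16 (-3.21), the phosphatidate phosphatase Lpin1 (-2.72) and the lipogenic gene Thrsp. Thrsp read 13823 and 11788 against 1174 and 4363, so that the hepatectomy arrays were both low but far apart (-2.49 ± 0.49, limma adjusted p = 0.0342). Its change was -1.55, or 2.92-fold, without hepatectomy replicate 1 and -3.43 without replicate 2. Usp2, Noct and Thrsp were not called without sham replicate 1 (limma adjusted p = 0.256, 0.0789 and 0.173) or without sham replicate 2 (0.142, 0.218 and 0.106). The median of the list was -0.35, and the number called depended on which arrays were in the fit, as it did over all probe sets.

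Genes that respond to glucocorticoids or to body temperature, signals that can set peripheral clocks, were read from 19 tested genes of a list of 21. The share called over all genes was 4.67%. Of 11 glucocorticoid-responsive genes 1 was called, the acute phase gene Lcn2 (5.23 ± 0.29, limma adjusted p = 0.000433), and their median was -0.02. Of 8 temperature-responsive genes 1 was called, the heat shock gene Hspa1b, with 3719 and 5026 against 2065 and 2243 (-1.004 ± 0.17, limma adjusted p = 0.0202) in 1 of its 3 tested probe sets. Without overlap 5 of the 8 were lower and 1, Cirbp (0.58), was higher, where over all genes 23.2% and 28.1% were. The median of the 8 was -0.31, and the list was not split by the direction in which temperature moves a gene. Without sham replicate 2 Hspa1b was at -0.79 and its call was lost.

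**Figure D4:**
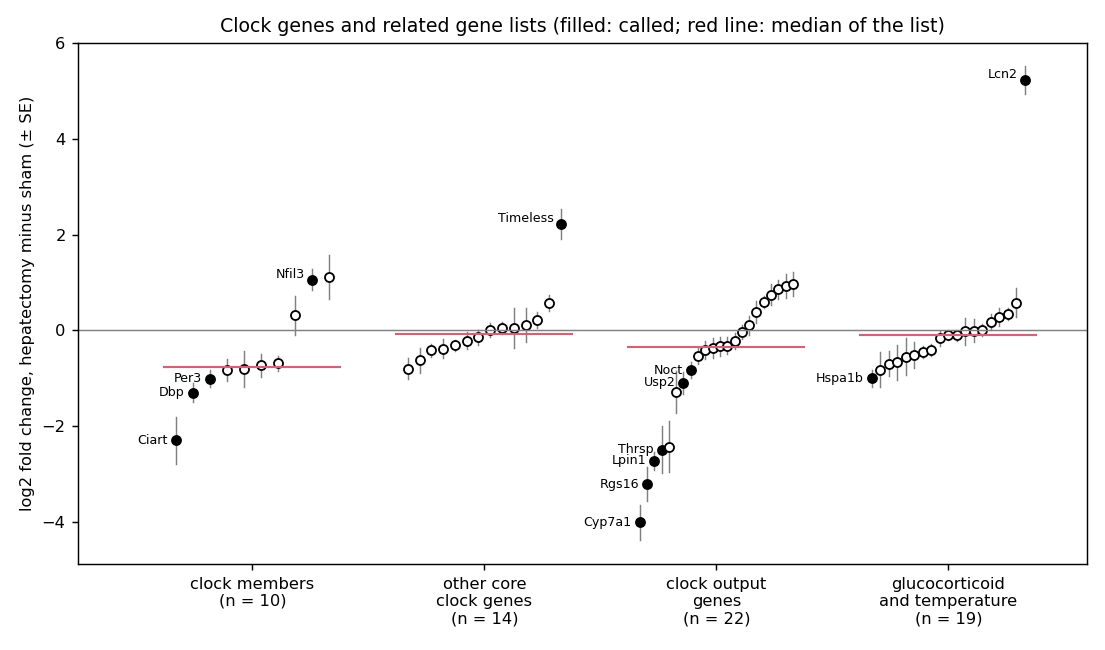
Log2 fold change, hepatectomy minus sham, with its SE, of the 10 clock genes, 14 other core clock genes, 22 clock output genes and 19 glucocorticoid- or temperature-responsive genes, in rising order within each list; filled points were called and named, and the red line is the median of the list. The medians were -0.77, -0.07, -0.35 and -0.10 in that order. They pool genes of different phase. Among the 10 clock genes the medians were -0.83 in phase with Dbp and 1.06 opposite. Among the other core clock genes they were -0.56 over 2 in-phase genes and 0.10 over 2 opposite ones, the rest having no assigned phase.

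The genes whose profile over the 4 arrays lay nearest to that of Dbp, by the Euclidean distance between log2 values centred on each gene's mean, were Cd79b (0.05), 2310040G24Rik (0.10), Srebf1 (0.11), Ctsw (0.14) and Ppargc1b (0.17). Of these Srebf1, a transcription factor of lipid synthesis, was called lower, from 4950 and 5747 to 1661 and 2434 (limma adjusted p = 0.00868). Nearest to Arntl were Gm31718 (0.14), Capg (0.19), Aldh1l2 (0.22), Hdc (0.26) and Socs3 (0.26), of which none was called. Socs3 read 936 and 508 against 2165 and 1280, with both duplicates of a group far apart in the way of Arntl. Over 4 arrays such a likeness is a description only.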

How the data were processed

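Total liver RNA was labelled with biotin and hybridised to 4 Affymetrix arrays of 1 colour. The values deposited by the authors were intensities on a linear scale, 1 signal per probe set and array, which the submitters' processing notes say came from GCOS 1.4. The sources used here do not give its settings. The mean signal after trimming 2% at each end was 500 on every array, so the arrays had been scaled before deposit, and this scaling was kept. Gene symbols came from the platform annotation.

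Signals were turned to log2 after adding 8.57, the 20th percentile, so changes of dim genes are understated. The 64 controls and probe sets with a mean under the 40th percentile were left out, and 27022 were tested with lmFit and eBayes (limma 3.58.1, R 4.3.3, trend, two-sided). SDs between arrays rest on 2 arrays per group, whose number limits the precision. The fit was tested on simulated data. The 50 bases after each start were added to the motif search after the data were seen. Named were all members, up to 6 called genes of each other list, Clock, Cry1, Nr1d2, Hlf and Bhlhe41, and the 5 genes nearest to Dbp and to Arntl. Genes of cell type markers were named by list. Members and lists were chosen with earlier results of these data known. Of 17 other core clock genes 15 had a probe set with that symbol alone, and of 25 output genes 22. Offsets, filters, normalization, variance models, probe set choice, a replicate block and leaving out each array were tried as alternatives.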

Additional observations from a re-analysis of the deposited data

How the results depend on the processing

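Every one of the 10 genes kept its direction under each alternative in which it was tested. The filters, the variance models and the replicate block cannot alter a fold change, so they are no test of direction. Nor could leaving out 1 array reverse a gene whose groups did not overlap, and the groups of only 2 genes overlapped. Which of the 10 genes passed the threshold did not hold. Without the filter on dim probe sets limma called 0 of the 10 (7 at an unadjusted p under 0.05), 3 output genes, 1 glucocorticoid- or temperature-responsive gene and 308 probe sets in all, and without a mean-variance trend 0 (again 7), 0 other core clock genes (3 at an unadjusted p under 0.05), 3, 1 and 258; the cause was not tested. With robust eBayes Ciart lost its call (adjusted p = 0.124) and Tef gained one (0.036), and with quantile normalization Nfil3 lost its call (0.0524). Leaving out 1 array at a time, the number called ran from 0 to 7 for the 10 genes, from 0 to 3 for other core clock genes, from 3 to 13 for output genes, from 1 to 3 for glucocorticoid- or temperature-responsive genes and from 341 to 2012 over all probe sets; a group with a lone array was assumed to vary like the other. The in-phase minus opposite value ran from -2.40 to -1.45 without 1 array, and was -2.05 without Per1 and Per2 and -1.86 with the mean of each gene's probe sets; no member was under the control level on all arrays, so that alternative gave no value.

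The titles give both groups the replicate numbers 1 and 2, with nothing that says they mark a shared animal or day. The deviations of same-numbered arrays correlated at 0.102 over the tested probe sets. With the number as a replicate block, 1943 probe sets were called, 6 of the 10 genes (with Per2 and Tef added), 2 other core clock genes, 12 output genes and 3 responsive genes. With 2 arrays per group, a value that missed the threshold is not shown to be unchanged.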
